A study of Rattus norvegicus with 31 samples.

Results

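The 8 chemokine receptors described here are Cxcr3, Ccr7, Cxcr4, Ccr2, Cx3cr1, Ccr6, Cxcr2 and Cxcr5, measured in PBMC (peripheral blood mononuclear cells, chiefly lymphocytes with monocytes) of adult rats. They were taken by gene name from the non-control probes of the arrays, with all probes of each, which gave 9 probes of 8 genes among 41012 probes. The list itself was selected on earlier results of these data, the group differences among them. After a filter on dim probes and with 1 probe kept per gene, 7 of the 8 genes were among the 22248 features tested. The one that failed was Cxcr2, whose probe was well above background on 6 of 31 arrays.

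Chemokine receptors are G protein-coupled receptors of the cell membrane that steer migrating leukocytes along gradients of chemokines, small secreted proteins. Each type of blood leukocyte carries its own set. Cxcr3 is known from activated T cells and natural killer (NK) cells, Ccr7 from naive and central memory T cells that enter lymph nodes, Cxcr5 from B cells that enter follicles, and Cxcr4 from most leukocytes. Ccr2 and Cx3cr1 are receptors of monocytes, Ccr6 is found on B cells and on T cells that make interleukin-17, and Cxcr2 is a receptor of neutrophils.

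The study asked what caloric restriction of the dam in early pregnancy leaves in the offspring, and whether leptin, a hormone of fat tissue that is also present in milk, changes it when given in suckling; the title states that it reverts a dysfunction. Of 16 mated rats, some dams received 20% less food on days 1 to 12 of pregnancy. The offspring of unrestricted dams form the group WT (7 arrays), those of restricted dams suckled normally the group CR (11 arrays), and those of restricted dams given leptin until postnatal day 21 the group CR-L (13 arrays). The leptin dose rose from 1.0 to 43.8 ng per day, 5 times the daily intake from milk. All groups then had 4 months of chow before blood was drawn, and both sexes were used. WT in the titles was read as the control group of the protocol. Strain, litter and the sex of each sample are not given in the sources used here. Since 16 dams gave 31 samples, littermates must be among them, and the p-values, which treat samples as independent, may be too small.

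Each array held 1 sample in red and a pool of 5 samples per group in green, and all values are log2 ratios of sample over pool. A dye effect that is equal on all arrays cancels between groups but not in a single ratio. Median red intensity lay between 69.8 and 93.9 on 30 of the arrays and at 235 on that of WT replicate 6, against a local background near 29. The leukocyte gene Ptprc, the T cell gene Cd3e and the monocyte gene Csf1r were well above background on 31 of 31 arrays. In blood, fewer cells of a type and less RNA per cell cannot be told apart.

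Each receptor value comes from a probe of 60 bases, 1 spot per array. The probe sequences of the receptors on which the results turn are shown 5′ to 3′, with positions on the rat build rn4 as the files give them. Both Cxcr4 probes are shown because they measure 1 transcript at different places.
Cxcr3, chrX:89794887-89794946, minus strand: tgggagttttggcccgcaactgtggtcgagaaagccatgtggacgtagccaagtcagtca
Cxcr4, brighter probe, chr13:41308900-41308959, minus strand: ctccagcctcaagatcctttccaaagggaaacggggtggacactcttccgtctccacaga
Cxcr4, other probe, chr13:41309106-41309165, minus strand: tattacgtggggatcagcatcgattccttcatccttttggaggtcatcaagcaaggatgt
Cx3cr1, chr8:125034092-125034151, minus strand: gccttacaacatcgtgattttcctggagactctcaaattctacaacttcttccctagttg
Ccr6, chr1:47116615-47116674, minus strand: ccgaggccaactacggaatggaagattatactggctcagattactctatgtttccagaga

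The 2 Cxcr4 probes lie 146 bases apart, and over the 31 arrays their log2 ratios correlated with r = 0.966 across arrays, as a description; the largest gap between them was 0.24 and the median gap 0.10. The Cxcr3 probe held 55% G and C, against a median of 43.3% over all 41012 probes. No receptor probe was saturated on any array. Red intensity was 171 to 605 for Cxcr3, 493 to 2100 for Ccr7, 11900 to 32600 for the brighter Cxcr4 probe, 167 to 461 for Ccr2, 228 to 548 for Cx3cr1 and 62.3 to 435 for Ccr6, all well above background on 31 arrays. Cxcr5 (45.7 to 116, well above background on 21 arrays) and Cxcr2 (33.8 to 98.8) lay near it, where the offset of 50 added in background correction pulls ratios towards 0. On WT replicate 1, CR replicate 11 and CR-L replicate 12 the corrected red signal stayed high even for dim probes. Cxcr2 stood there at log2 9.54, 9.03 and 9.19, against 6.64 on WT replicate 2 at a like raw intensity. Ratios on these arrays are therefore pulled towards 0 more strongly, those of Cxcr3, Ccr2, Cx3cr1 and Ccr6 included. Probes differ in how well they bind, so these intensities give no order of the receptors.

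Cxcr3, which guides activated T and NK cells towards interferon-induced chemokines, was the 1 receptor of 7 that passed an adjusted p of 0.05 over all features, and only between CR-L and WT. In WT its log2 ratio ran from -0.50 to -0.09 with a median of -0.40, in CR from -0.32 to 0.45 with a median of 0.09, and in CR-L from -0.16 to 0.85 with a median of 0.23. None of 7 WT arrays lay above 0, against 8 of 11 CR and 9 of 13 CR-L arrays. The groups overlapped at their edges: the lowest CR array, CR replicate 9, lay among the WT arrays, and so did 2 CR-L arrays, of which replicate 10 was the lowest of its group. The CR-L array that lay farthest up was replicate 2. Group means were -0.31 ± 0.17 (SD, n = 7) in WT, 0.13 ± 0.22 (SD, n = 11) in CR and 0.22 ± 0.29 (SD, n = 13) in CR-L.

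From WT to CR-L the difference of Cxcr3 was 0.54 ± 0.11 (SE), 1.45-fold (limma, adjusted p = 0.0047). Of all features, 3.54% passed in that comparison, and 2.14% passed with a higher level in CR-L. From WT to CR the difference was 0.44 ± 0.11, 1.36-fold (adjusted p = 0.06), and it did not pass, with 0.458% of all features called. Between CR-L and CR it was 0.09 ± 0.10, with a 95% interval from -0.10 to 0.29, and 0% of features were called (519 had an unadjusted p under 0.05). The receptors were chosen with these results known, and both comparisons against WT share the WT arrays; the adjusted p says where the gene stands in the fit and is no independent evidence. From WT to CR it passed in 4 of 31 fits with 1 array left out. There adjusted p was 0.0267 without CR replicate 9, 0.0382 without CR-L replicate 2, 0.0497 without CR-L replicate 5 and 0.0449 without CR-L replicate 10. In the other fits it did not pass, with an adjusted p up to 0.144 without WT replicate 2. Of 9 alternatives in processing 2 passed, and adjusted p reached 0.0905 with the authors' series table. With Agilent's log ratio, which has no such offset added, the differences were 0.84 in CR-L (adjusted p = 0.00236) and 0.68 in CR (adjusted p = 0.0497).

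**Figure D1:**
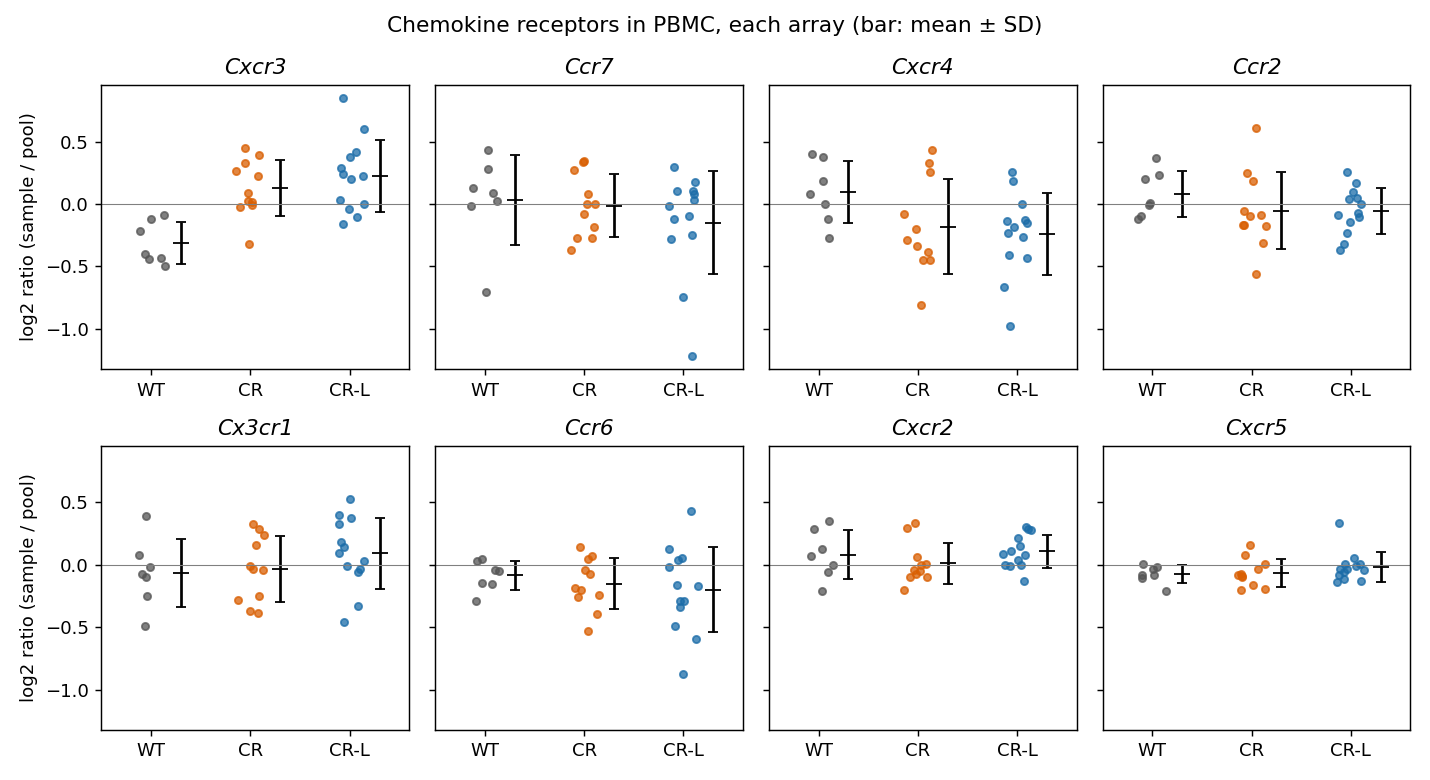
Log2 ratio of sample over pool (y axis) for each receptor in WT (7 arrays), CR (11) and CR-L (13); points are arrays, bars the mean ± SD, and Cxcr4 is its brighter probe. All 7 WT arrays lie below 0 for Cxcr3, while the 3 groups overlap over most of their range for the other receptors.

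The arrays lay on 8 slides, of which 7 held 1 WT array each together with arrays of the other groups. On these slides the mean Cxcr3 ratio of the CR arrays was above that of the WT array on 7 of 7, by 0.11 to 0.89. CR-L arrays were above it on 7 of 7 as well, by 0.17 to 0.81. Over all features, 3.65% had CR above WT on each of the 7 slides and 4.52% had CR-L above WT on each. Slide 4, with the highest WT value, had the smallest gap for CR, and slide 3 had the smallest for CR-L.

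**Figure D2:**
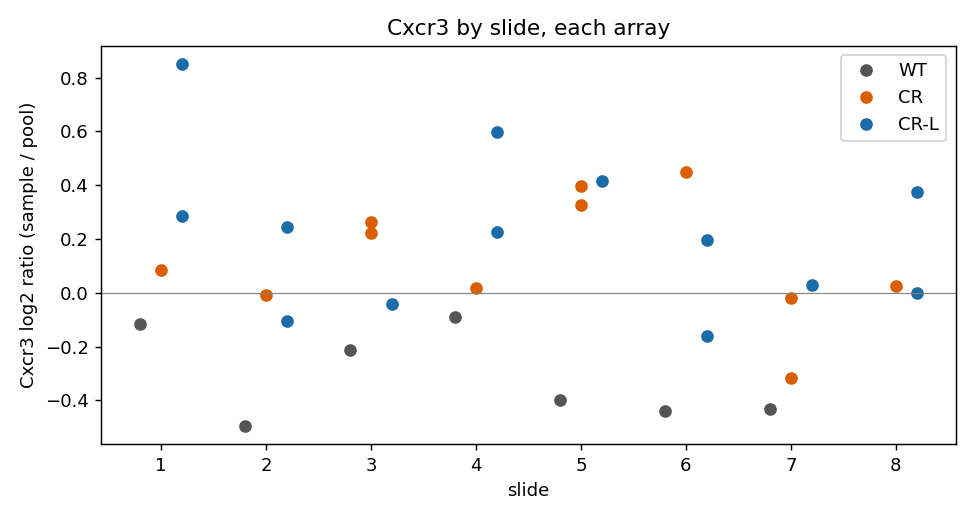
Cxcr3 log2 ratio (y axis) by slide (x axis), one point per array, coloured by group. The WT point lies below the mean of the CR points and below the mean of the CR-L points on each of slides 1 to 7, and slide 8 holds no WT array.

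Beside Cxcr3, most markers of T and NK cells lay above 0 in CR-L and in CR against WT, none past the threshold. The mean over the T cell list (12 genes) ran from -0.17 to 0.15 in WT, from -0.13 to 0.21 in CR and from -0.20 to 0.27 in CR-L. From WT to CR-L 11 of its 12 members were above 0, with a median difference of 0.07 against 0.54 for Cxcr3, and by limma 0 passed (4 at an unadjusted p under 0.05). Over all features, 55.1% lay above 0 in that comparison and 16.7% had an unadjusted p under 0.05. Single members of the T cell list came to more than its median, Cd5 at 0.28 ± 0.088 (adjusted p = 0.0748), Il7r at 0.25 ± 0.11 and Trat1 at 0.25 ± 0.074 (adjusted p = 0.0503). Others hardly moved or went the other way: Cd3e at 0.034, Cd3g at 0.021, Cd28 at 0.012, Cd4 at 0.0021 and Cd8a at -0.16. For the NK cell list, which ran from -0.32 to 0.25 in WT, from -0.43 to 0.51 in CR and from -0.72 to 0.56 in CR-L, 9 of 9 members were above 0 with a median of 0.13, and 0 passed (2 at an unadjusted p under 0.05). Of these Klrd1 stood at 0.33 ± 0.12 and Klrk1 at 0.24 ± 0.11, while Nkg7 and Ccl5 stood at 0.047 and 0.020. From WT to CR, 11 of 12 T cell markers (median 0.085) and 8 of 9 NK cell markers (median 0.062) lay above 0. Of the 2 lists, 4 and 0 members had an unadjusted p under 0.05 by limma. Over all features, 55.5% lay above 0 in that comparison and 12.4% had such a p. All members of both lists were well above background on 31 arrays, and their part in the Cxcr3 difference was not tested.

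Of the receptors of lymphoid homing, Cxcr4, the receptor for the bone marrow chemokine Cxcl12, lay lower in both restricted groups without passing the threshold. Its brighter probe ran from -0.27 to 0.40 in WT with a median of 0.08, from -0.81 to 0.43 in CR with a median of -0.29, and from -0.97 to 0.26 in CR-L with a median of -0.18. In each restricted group 3 arrays lay above 0, against 5 of 7 WT arrays, and the groups overlapped over the whole WT range in CR. The lowest arrays were CR-L replicate 2, which had the highest Cxcr3, and CR replicate 6. The difference was -0.27 ± 0.15 (SE) from WT to CR (limma, adjusted p = 0.484) and -0.34 ± 0.15 from WT to CR-L (adjusted p = 0.235). The other probe, fitted with every probe kept, gave -0.30 ± 0.16 (adjusted p = 0.459) and -0.44 ± 0.15 (adjusted p = 0.113). On slides with a WT array, CR lay above it on 2 of 7 and CR-L on 1 of 7.

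Ccr7 ran from -0.71 to 0.43 in WT with a median of 0.08, from -0.37 to 0.34 in CR with a median of -0.0016, and from -1.22 to 0.30 in CR-L with a median of -0.013. Most arrays of all groups lay in one common range, and the spread came from a few low ones: CR-L replicate 5 at -1.22, another CR-L array at -0.74 and WT replicate 7 at -0.71. Differences were -0.046 ± 0.16 from WT to CR and -0.18 ± 0.16 from WT to CR-L (limma, adjusted p = 0.943 and 0.623). Single arrays set much of their size: without WT replicate 7 they came to -0.17 and -0.30, without WT replicate 4 the CR difference came to 0.020, and without CR-L replicate 5 the CR-L difference came to -0.092. None of these passed. Cxcr5 ran from -0.21 to 0.0030 in WT, from -0.20 to 0.16 in CR and from -0.14 to 0.34 in CR-L, and its differences from WT were 0.012 ± 0.054 and 0.057 ± 0.053, near background as said.

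The monocyte receptors showed no difference past the threshold. Ccr2, which brings monocytes out of the bone marrow, ran from -0.12 to 0.37 in WT with a median of 0.0075, from -0.56 to 0.61 in CR with a median of -0.10, and from -0.37 to 0.26 in CR-L with a median of -0.07. The WT arrays lay inside the range of CR, which was the widest. Its differences from WT were -0.14 ± 0.11 in CR and -0.14 ± 0.11 in CR-L (limma, adjusted p = 0.67 and 0.573), and with 1 array left out they ran from -0.20 (without CR replicate 4) to -0.084 (without CR replicate 1) and from -0.17 (without WT replicate 1) to -0.090 (without WT replicate 5). Cx3cr1, the receptor for the membrane-bound chemokine Cx3cl1 on patrolling monocytes and NK cells, ran from -0.49 to 0.39 in WT with a median of -0.08, from -0.39 to 0.32 in CR with a median of -0.037, and from -0.45 to 0.53 in CR-L with a median of 0.10. The groups overlapped almost fully. The differences were 0.032 ± 0.13 in CR and 0.16 ± 0.12 in CR-L (adjusted p = 0.953 and 0.58); with 1 array left out they ran from -0.039 (without WT replicate 5) to 0.11 (without WT replicate 7) and, leaving out the same arrays, from 0.086 to 0.23.

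Ccr6, the receptor for Ccl20, ran from -0.29 to 0.05 in WT with a median of -0.05, from -0.53 to 0.14 in CR with a median of -0.18, and from -0.88 to 0.43 in CR-L with a median of -0.17. WT was the narrowest group and lay inside both others; CR-L replicate 8 was highest and CR-L replicate 5 lowest of all arrays. The differences from WT were -0.07 ± 0.12 in CR and -0.11 ± 0.12 in CR-L (limma, adjusted p = 0.879 and 0.696). With 1 array left out they ran from -0.10 (WT replicate 2 left out) to -0.027 (CR replicate 1 left out) and from -0.17 (without CR-L replicate 8) to -0.057 (without CR-L replicate 5). Cxcr2, fitted without the filter, ran from -0.21 to 0.35 in WT, from -0.20 to 0.33 in CR and from -0.13 to 0.30 in CR-L, with 95% intervals of the difference from WT of -0.22 to 0.08 and -0.12 to 0.18.

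Between CR-L and CR, the comparison that holds restriction fixed and differs in leptin, the differences of the tested receptors other than Cxcr3 lay between -0.14 ± 0.14 (Ccr7) and 0.13 ± 0.11 (Cx3cr1). Their 95% intervals reached at most -0.41 on the low side, for Ccr7, and 0.34 on the high side, for Cx3cr1, so that larger differences lie outside the intervals. The adjusted p was 1 for each.

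**Figure D3:**
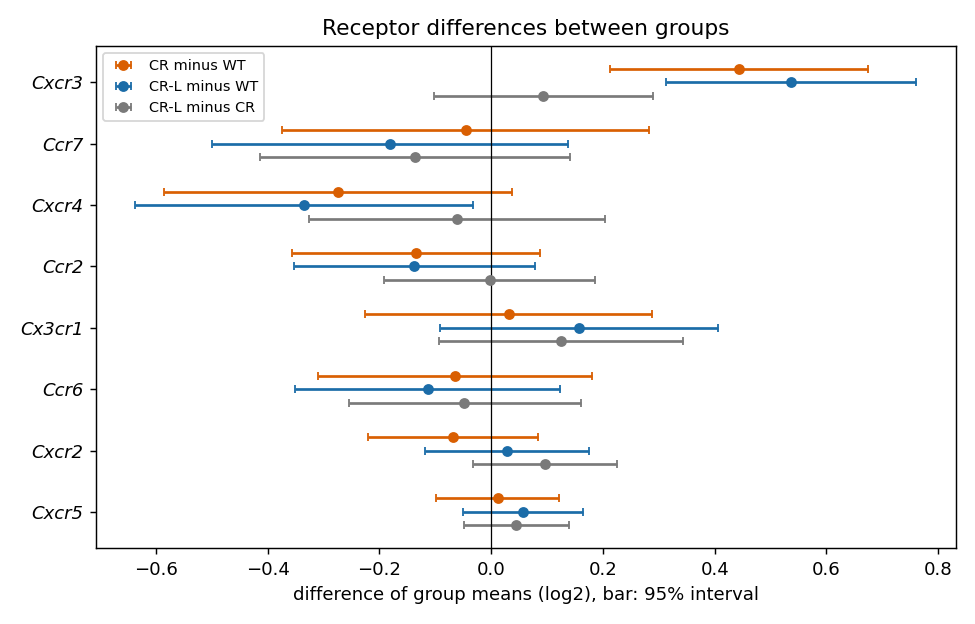
Differences of group means on the log2 scale (x axis) with 95% intervals for each receptor (y axis), for CR minus WT, CR-L minus WT and CR-L minus CR. For Cxcr3 both intervals against WT lie above 0, for Cxcr4 that of CR-L minus WT lies just below 0 (-0.64 to -0.03), and the others span 0.

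The receptors varied between arrays of one group more than most genes. The SD within groups was 0.245 for Cxcr3, 0.352 for Ccr7, 0.334 for Cxcr4, 0.236 for Ccr2, 0.274 for Cx3cr1 and 0.261 for Ccr6, against a median of 0.139 over all features. For these 6 receptors between 87.1% and 94.9% of features had a lower SD. Cxcr2 (0.159) and Cxcr5 (0.109), the dim probes, were nearer to or under the median. Features were not matched on signal, and the offset narrows the ratios of dim probes. The part of signal level in these spreads was not tested.

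Several receptors varied across arrays together with the RNA of blood cell type markers, and cells were not counted. Each receptor was set against the mean of 5 lineage marker lists (B cells, T cells, NK cells, monocytes, granulocytes) over the 31 arrays. These pooled relations carry the group differences as well, and r is therefore given also with slide and group means taken out. Of the 40 relations, 6 passed Benjamini-Hochberg adjustment of the permutation p (100000 permutations, two-sided), all 6 positive, and 5 did by Spearman's rho. All values on 1 array share its RNA and its normalization.

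Cx3cr1 rose with the monocyte list (Cd14, Csf1r and 7 others; r = 0.734, permutation adjusted p = 0.0006; rho = 0.715, adjusted p = 0.0004). With slide and group means taken out r was 0.831, and without the arrays farthest out on the monocyte axis, CR-L replicates 5 and 6, it was 0.678. Ccr2 rose with the same list too (r = 0.527, permutation adjusted p = 0.019; rho = 0.581, adjusted p = 0.0105), with 0.601 after slide and group means were taken out; with the red channel alone the adjusted p was 0.109. Without CR-L replicates 5 and 6 r was 0.448 (adjusted p = 0.0812), so that the call rests on them. Within WT its r was -0.23 over 7 arrays, against 0.647 in CR and 0.737 in CR-L.

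Ccr6 rose with the B cell list (a mean over 9 genes, Ms4a1, Cd79a and Cd79b among them; r = 0.694, permutation adjusted p = 0.0006; rho = 0.757, adjusted p = 0.0004). It held at 0.644 with slide and group means taken out and at 0.601 without CR-L replicate 5 and CR replicate 6. CR-L replicate 8, highest in Ccr6, was the highest CR-L array in the B cell list at 0.34, and CR-L replicate 5, lowest in Ccr6, was the lowest of its group at -0.83. Cxcr5, the other B cell receptor, had r = 0.221 with that list, with its probe near background. Cxcr4 passed with the B cell list by r (0.474, permutation adjusted p = 0.0471) but not by rho (0.359, adjusted p = 0.16), and r was 0.337 (adjusted p = 0.229) without CR-L replicate 5 and CR replicate 6, on which the relation rests. With slide and group means taken out it was 0.472 (adjusted p = 0.185), and with the red channel alone its adjusted p was 0.0645. Within groups r of Cxcr4 with that list was -0.415 in WT, 0.619 in CR and 0.461 in CR-L.

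Cxcr3 rose with the T cell list (r = 0.586, permutation adjusted p = 0.00987; rho = 0.54, adjusted p = 0.0231), and r was 0.646 without CR-L replicates 2 and 13. With slide and group means taken out, however, r was 0.16 (adjusted p = 0.91), so that the relation was not seen with both taken out together. What part slides or groups had in this was not tested. With slide means left in, r within single groups was 0.722 in WT, 0.544 in CR and 0.425 in CR-L. Cxcr2 rose with the granulocyte list (r = 0.551, permutation adjusted p = 0.0144; rho = 0.516, adjusted p = 0.0297; 0.613 with slide and group means taken out), although its probe was near background. Without WT replicate 3 and CR-L replicate 1, highest in the granulocyte list, r was 0.42 (adjusted p = 0.102), and the call rests on them. Ccr7 had no relation past the threshold, the largest in size being -0.32 with granulocytes. Slides held 3 or 4 arrays each, too few for an r within a slide.

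**Figure D4:**
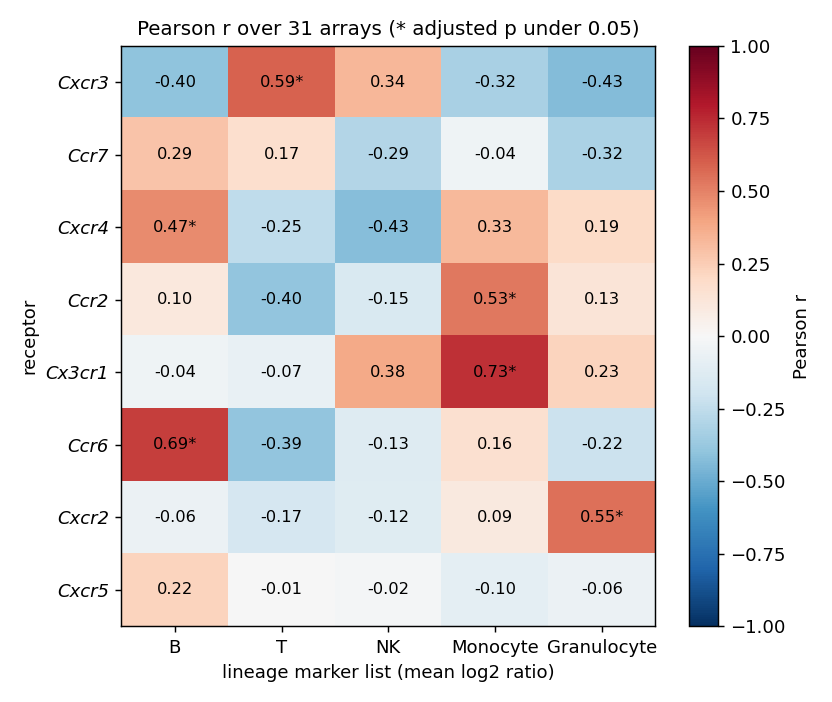
Pearson r over 31 arrays between each receptor (y axis) and the mean log2 ratio of each lineage marker list (x axis), in colour and figures, with stars where the adjusted permutation p is under 0.05. The 6 starred cells are Cxcr3 with T cells, Cxcr4 and Ccr6 with B cells, Ccr2 and Cx3cr1 with monocytes, and Cxcr2 with granulocytes.

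No member of the 7 blood cell lists passed in any comparison. For CR-L against WT, 9 of 9 B cell markers lay below 0 with a median of -0.27, 6 of 9 monocyte markers lay below 0 with a median of -0.08, and 8 of 9 granulocyte markers lay below 0 with a median of -0.28, with 4, 1 and 1 at an unadjusted p under 0.05 by limma. For CR against WT, 8 of 9 B cell markers (median -0.15), 9 of 9 monocyte markers (-0.21) and 9 of 9 granulocyte markers (-0.31) lay below 0, with 1 in each at an unadjusted p under 0.05. Over all features, 55.1% lay above 0 for CR-L against WT, 55.5% for CR against WT and 47.9% for CR-L against CR. An unadjusted p under 0.05 was reached by 16.7%, 12.4% and 2.33% of them. The B cell mean ran from -0.48 to 0.36 in WT, from -0.91 to 0.46 in CR and from -0.83 to 0.34 in CR-L. Means of the red cell and platelet lists lay about as far apart between groups as those of Cxcr3, with wider spreads. The red cell mean was -0.47 ± 0.55 (SD) in WT, -0.73 ± 1.12 in CR and -0.055 ± 1.05 in CR-L, and 7 of 7 red cell markers lay above 0 in CR-L against WT (median 0.41) and against CR (median 0.69, with 2 at an unadjusted p under 0.05). The platelet mean was -0.41 ± 0.62 in WT, 0.018 ± 0.46 in CR and -0.41 ± 1.27 in CR-L, and 7 of 7 platelet markers lay above 0 in CR against WT (median 0.45). The part of these cells in the receptor values was not tested.

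Of the 28 pairs of receptors, set against each other after the data had been seen, 1 passed by r: arrays high in Cxcr3 were low in Cxcr4 (r = -0.584, permutation adjusted p = 0.0176; rho = -0.517, adjusted p = 0.048). With slide and group means taken out r was -0.665 (adjusted p = 0.023). Without CR replicate 6 and CR-L replicate 2, farthest out in Cxcr4, it was -0.451 (adjusted p = 0.137), so that the call rests on them. Within groups r was 0.476 in WT (n = 7), -0.532 in CR (n = 11) and -0.663 in CR-L (n = 13); the difference between these was not tested. Ccr7 and Cxcr4 passed by rho alone (0.538, permutation adjusted p = 0.048; r = 0.425, adjusted p = 0.12).

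**Figure D5:**
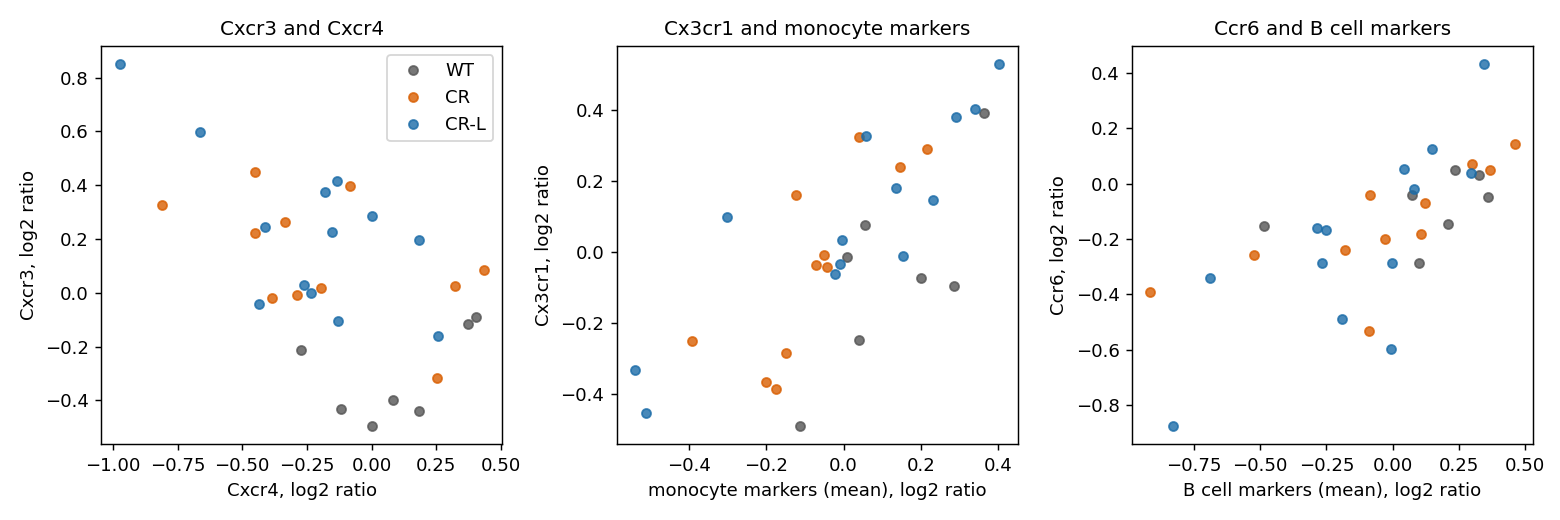
Log2 ratios of 31 arrays, coloured by group: Cxcr3 (y axis) against Cxcr4 (x axis), Cx3cr1 against the mean of the monocyte list, and Ccr6 against the mean of the B cell list. Pearson r is -0.584, 0.734 and 0.694, and CR-L replicate 2 is the point at the top left of the first panel.

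Of 18 listed ligands of these receptors, 17 were on the array and 9 were among the features tested. Cxcl10, Ccl2, Cxcl1, Cxcl2, Cxcl3 and Ppbp were well above background on 31 of 31 arrays. Cx3cl1 was so on 27, Cxcl6 on 24 and Cxcl12 (for Cxcr4) on 10. Of the Cxcr3 ligands other than Cxcl10, Cxcl9 and Cxcl11 were so on 1 array each, as were Ccl19 (for Ccr7), Ccl20 (for Ccr6) and Cxcl13 (for Cxcr5). No ligand passed by limma in any comparison (1 in each at an unadjusted p under 0.05), and 3 of 9 lay above 0 from WT to CR-L, with a median of -0.25. Such a p was reached by 12.4% of all features from WT to CR, 16.7% from WT to CR-L and 2.33% between CR-L and CR. From WT to CR-L 55.1% of all features lay above 0. Cxcl10 differed by -0.82 ± 0.31 from WT to CR-L, from a mean of 0.55 to -0.26 (limma, adjusted p = 0.158), opposite in sign to its receptor. Cx3cl1 differed by 0.16 ± 0.054 from WT to CR (adjusted p = 0.185), and in the authors' series table by -0.08.

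Among 10 other tested chemokine receptors of 16 listed, none passed by limma either. An unadjusted p under 0.05 was reached by 2 from WT to CR, 4 from WT to CR-L and 0 between CR-L and CR. The shares of all features were 12.4%, 16.7% and 2.33%. From WT to CR-L 9 of 10 lay above 0, against 55.1% of all features, with a median of 0.13. The exception was Ccrl2, an atypical receptor that binds chemerin, at -0.63 ± 0.21, from 0.40 to -0.23 (limma, adjusted p = 0.0839). Ccr3, the eotaxin receptor of eosinophils and basophils, stood at 0.37 ± 0.13 (adjusted p = 0.124). Both passed under some other settings, Ccrl2 with the red channel alone (adjusted p = 0.048) and without CR-L replicate 7 (0.0498), and Ccr3 with the red channel (0.0156), Agilent's log ratio (a difference of 1.15, adjusted p = 0.0224), the authors' series table (0.0353) and slide as a block (0.0424).

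Of 29 tested partners in signalling, traffic and transcription (36 listed), 1 fell from WT to CR and 2 fell from WT to CR-L, against 0.108% and 1.39% of all features lower. Foxo1, a transcription factor that promotes lymphocyte homing genes, Ccr7 among its known targets, fell by 0.46 ± 0.096 in CR (limma, adjusted p = 0.0246) and by 0.48 ± 0.093 in CR-L (adjusted p = 0.00302). The CR call was kept in 27 of 31 fits with 1 array left out, and over all 31 the difference ran from -0.54 to -0.40. It was lost without WT replicate 2 (adjusted p = 0.0738), 4 (0.0965) or 6 (0.0558), without CR replicate 8 (0.0536), and with the authors' series table (-0.49, adjusted p = 0.0676). Gpr183, a receptor for oxysterols that places B cells and dendritic cells in lymphoid tissue, fell by 0.47 ± 0.13 in CR-L (adjusted p = 0.0387). That call was lost, at differences of -0.48 to -0.40, in 11 of 31 fits with 1 array left out (WT replicates 1, 2, 4, 5 and 6, CR-L replicates 2, 3, 5, 6, 7 and 11), up to an adjusted p of 0.125 without WT replicate 4, and without the filter on dim probes (0.0526). The chemotactic G protein, kinase, arrestin and integrin genes on the list did not pass.

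For each receptor the 3 named genes with the most similar pattern over the 31 arrays were taken by Pearson r. For Cxcr3 they were Rnf113a1 (0.831), Cptp (0.82) and Gskip (0.797). For Ccr7 they were Eef1a1 (0.908), Rpl4 (0.896) and Rack1 (0.884), and for Cxcr4 Irs2 (0.866), Arid5a (0.862) and Traf6 (0.832). Those of the monocyte receptors were Serpinb1a (0.773), Il36b (0.734) and Fn1 (0.724) for Ccr2 and Cd59b (0.894), Rhov (0.88) and Calhm2 (0.861) for Cx3cr1, with no gene in common. Those of Ccr6 were Pxdc1 (0.844), RT1-DOa (0.786) and Ptpn18 (0.782). For the dim probes r was lower, with Adgrg3 (0.727), Il1r2 (0.708) and Stfa2l3 (0.695) for Cxcr2, and Or52n4 (0.674), Hpf1 (0.631) and Katnip (0.625) for Cxcr5. They were picked as the highest among all features, so that their size supports nothing.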

How the data were processed

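Per the labels, individual Cy5 samples were hybridised against one Cy3 pool. The authors deposited 1 scanner file per array with red and green spot intensity, local background and well-above-background flags, and a log10 ratio of red over green, from Agilent Feature Extraction 10.7.3.1 per the submitters' processing notes. The authors' series table, also deposited, holds log2 values that tracked red intensity (lowest r = 0.993 over probes), with a median of 8.17 for WT replicate 1. Its further normalization is not given in the sources used here.

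Mean intensities were corrected by normexp with an offset of 50 and normalized by loess within arrays (limma 3.58.1, R 4.3.3). Control spots (1639 of 45018) and outlier spots (0.408% of values) were left out. Kept were probes whose red signal was well above background in 7 arrays or more (26721), and the brightest stood for each gene, giving 22248 features. Names were updated through a table of the GRCr8 assembly, 18971 probes by accession, 1253 by another accession, 2408 by symbol and 167 by an older one; 97 kept the file's name and 18116 had none. Groups were compared with lmFit and eBayes over all 31 arrays, two-sided, with Benjamini-Hochberg adjustment over all features at a threshold of 0.05. Precision is limited by the number of arrays. The fits were tested on simulated data.

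Members and lists were chosen with earlier results of these data known. Named were the 8 members; of each list of ligands, other receptors and partners, up to 6 past the threshold, filled to 2 by unadjusted p; ligands by role; and the 3 most alike genes of each member. Alternatives were Agilent's log ratio, the red channel alone, Aquantile, the series table, no or a stricter filter on dim probes (at least 16 arrays), every probe tested, slide or replicate number as a block, and each array left out. One marker gene is not reported here by itself.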

Additional observations from a re-analysis of the deposited data

Results flagged for a closer look

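In WT, Ccr7 in WT replicate 7 was far from the others at -0.71, with the other 6 WT arrays between -0.016 and 0.43; its gap to the nearest was 0.608 of the group's range, above Dixon's 95% critical value for 7 samples. WT is the only group of a size that was tested (CR and CR-L hold over 10), and 1 of its 9 probe groups was outlying. Chance alone flags about 1 test in 20, so 1 flag among 9 tests is no clear excess. The tests of the 2 Cxcr4 probes (r = 0.966) were also not independent. The same array had the highest Cx3cr1 of its group (0.39), the highest B cell (0.36) and monocyte (0.36) means and the lowest T cell mean (-0.17). Their part in the Ccr7 value was not tested.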

How the results depend on the processing

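Cxcr3 from WT to CR-L passed in 9 of 9 alternatives (0.54 to 0.84) and in 31 of 31 fits with 1 array left out, and the count of receptors past the threshold in that comparison was 1 in each. Not all of these could move the difference. Aquantile leaves the log ratios as they are. The other filters, testing every probe and leaving out a CR array keep the Cxcr3 values of WT and CR-L. In those fits the difference stayed at 0.54 and at most the adjusted p could change. From WT to CR, 0 receptors passed, against 1 (Cxcr3) with Agilent's log ratio and 1 with the replicate block (difference 0.50, adjusted p = 0.0366), and 0 to 1 with 1 array left out. CR-L against CR gave 0 receptors and 0 features in each. Signs of small differences turned for Cx3cr1 and Cxcr5 (1 of 9 alternatives each) and Ccr6 (2 of 9) from WT to CR, and for Ccr2 (1) and Cxcr5 (3) between CR-L and CR; with 1 of 31 arrays left out, they turned from WT to CR for Ccr7 (1 fit), Cx3cr1 (3) and Cxcr5 (3), and between CR-L and CR for Cxcr4 (2), Ccr2 (9) and Ccr6 (1). No such difference passed. For Cxcr5, Agilent's log ratio gave 0.14 from WT to CR and -0.09 between CR-L and CR. Over all features, CR against WT gave 102 (78 higher, 24 lower), against 65 with Agilent's log ratio (38 higher), 34 with the red channel alone (14 higher), 0 with the authors' series table and 229 with the replicate block (131 higher). It ranged from 17 without WT replicate 4 to 207 without CR replicate 9. CR-L against WT gave 787 (477 higher), 496 with the series table (260 higher), and 421 (without WT replicate 4) to 1099 (without CR-L replicate 10). In the series table Cx3cl1 turned to -0.082 from WT to CR and to -0.0077 from WT to CR-L. The 25 pairs of samples with the same replicate number deviated together with r from -0.426 to 0.446 (median 0.042, 7 pairs over 0.1). The numbers were not taken to pair the samples, although these r cannot exclude a shared litter or handling. Lineage relations past the threshold numbered 6, against 4 with slide and group means taken out (4 of them among the 6), 4 without the 2 farthest arrays (3 among them), 5 with the red channel alone (4 among them) and 10 with Agilent's log ratio (6 among them). For the receptor pairs the count was 1, against 0 without the 2 farthest arrays, 2 with the red channel and 2 with Agilent's log ratio. Signal limits Cxcr2 and Cxcr5, whose probes lay near background, and not them alone. With Agilent's log ratio in place of the main one, Cxcr3 went from 0.54 to 0.84 from WT to CR-L. Ccr6 went from -0.065 to 0.027 from WT to CR.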
